A study of Mus musculus with 6 samples.

Results

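The 8 genes described here were chosen because their transcript levels changed by a large factor between sham and DOCA-salt mice when the UMIs (unique molecular identifiers, each standing for 1 captured transcript) of all tubular kidney cells were summed. They are Gabrg3, Ctnnd2, Arhgap36, Cntnap5a, Sh3rf3, Creb5, Pdlim1 and Tfr2, 8 of the 33696 genes in the deposited matrices. Several of them are best known from neurons. The choice had no numeric threshold, and it was made on the sham against DOCA-salt contrast itself. The size of that change in tubular cells and tubule segments is therefore described below without a p-value. Tests of these 8 genes are kept for cells or contrasts that the choice did not use. Genes of related pathways were tested on the same contrast, from lists drawn up with earlier results of these data known.

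Kidneys of 6 male C57BL/6 mice, 8 to 10 weeks old when obtained, were dissociated and profiled by droplet single-cell RNA sequencing, 3 mice in each group. The DOCA-salt mice lost the left kidney, received a 50 mg pellet of deoxycorticosterone acetate (DOCA, a mineralocorticoid) and drank 1% NaCl for 21 days. The sham mice underwent sham surgery and drank ordinary water. Loss of a kidney and DOCA with salt came together in each treated mouse, so their parts in any difference cannot be told apart.

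Gabrg3 encodes the gamma-3 subunit of the GABA-A receptor, a chloride channel that GABA opens. Ctnnd2 (delta-catenin) and Cntnap5a (a contactin-associated protein of the neurexin family) act in cell adhesion. Arhgap36 and Sh3rf3 are signalling proteins: Arhgap36 blocks the catalytic subunit of protein kinase A and activates hedgehog signalling, and Sh3rf3 (POSH2) is a RING ubiquitin ligase that scaffolds the JNK cascade. Creb5 is a transcription factor of the CREB and ATF family, Pdlim1 ties PDZ and LIM domains to alpha-actinin on the actin cytoskeleton, and Tfr2 (transferrin receptor 2) senses iron-loaded transferrin in hepatocytes and erythroid precursors. The tubule segments in which they were placed are the proximal tubule (PT), which reabsorbs most of the filtrate, the thin limb, the thick ascending limb (TAL), the distal convoluted tubule (DCT), the connecting tubule (CNT), the principal cells of the collecting duct (PC) and the type A and type B intercalated cells (IC-A and IC-B). The CNT and the principal cells are the main sites where mineralocorticoids raise sodium reabsorption.

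The promoter letters of these genes were read because the mineralocorticoid receptor and CREB-type factors bind known motifs. RefSeq start sites on GRCm38.p6 gave 11 promoters for 7 of the 8 genes. The core of the mineralocorticoid response element, AGAACA on either strand, was in 0 of these 11 promoters and in 6233 of 32851 promoters of all genes (19.0%), each read from 250 bases before to 50 bases after the start. The palindromic element made of 2 such cores spaced by 3 bases was in 0 of the 11 and in 3 of all promoters (0.00913%). The cAMP response element TGACGTCA, which reads the same on both strands, was in 588 promoters (1.79%), among them 1 of the 11. That promoter is the upstream start of Creb5, a gene whose product itself belongs to the family that binds this element, and the element (in capitals) begins 45 bases before the start. Its 250 upstream bases are shown together with those of Gabrg3 and Arhgap36, 2 genes that were at 0 UMIs in the CNT of every sham mouse. The lines give chr6:53287053-53287302 on the plus strand, chr7:57387216-57387465 on the minus strand and chrX:49463695-49463944 on the plus strand, 5′ to 3′ and in lower case apart from the element.
Creb5: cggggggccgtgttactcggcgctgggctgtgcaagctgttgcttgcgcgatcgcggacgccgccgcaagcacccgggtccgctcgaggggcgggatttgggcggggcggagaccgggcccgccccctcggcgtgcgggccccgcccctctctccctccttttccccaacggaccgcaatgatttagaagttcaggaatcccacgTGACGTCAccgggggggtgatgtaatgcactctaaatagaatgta
Gabrg3: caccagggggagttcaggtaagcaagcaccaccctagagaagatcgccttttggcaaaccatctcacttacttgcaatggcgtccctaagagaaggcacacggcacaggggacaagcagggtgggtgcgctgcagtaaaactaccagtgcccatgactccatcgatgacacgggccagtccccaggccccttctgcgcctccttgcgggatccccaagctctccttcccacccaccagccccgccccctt
Arhgap36: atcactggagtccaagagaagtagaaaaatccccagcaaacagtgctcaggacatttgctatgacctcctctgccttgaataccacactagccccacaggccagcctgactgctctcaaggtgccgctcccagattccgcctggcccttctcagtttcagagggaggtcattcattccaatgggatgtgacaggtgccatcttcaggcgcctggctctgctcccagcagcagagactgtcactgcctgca
A match or its absence describes the letters of these windows only.

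In the GRCm39 annotation Gabrg3 (ENSMUSG00000055026) spans chr7:56366213-57036936 on the minus strand, and its merged exons take 1.78% of that length. Ctnnd2 (ENSMUSG00000022240, chr15:30172668-31029959), Cntnap5a (ENSMUSG00000070695, chr1:115612486-116515053), Creb5 (ENSMUSG00000053007, chr6:53264255-53677361) and Sh3rf3 (ENSMUSG00000037990, chr10:58648160-58977933) are also long genes, all on the plus strand. Arhgap36 (ENSMUSG00000036198, chrX:48536999-48589121) and Tfr2 (ENSMUSG00000029716, chr5:137568087-137586343) lie on the plus strand and Pdlim1 (ENSMUSG00000055044, chr19:40209617-40260533) on the minus strand. None of the 8 overlapped a gene of the matrices on its own strand (0 same-strand overlaps), while Gabrg3, Ctnnd2, Arhgap36 and Sh3rf3 each overlap at least 1 gene on the opposite strand. Levels below are counts per 1000000 UMIs (CPM), counted from 3′ tags, so that they are not divided by gene length.

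The 6 libraries held 76774 barcodes and between 93172739 and 137819127 UMIs each. After filters and doublet removal 55630 cells remained, of which 41468 were tubular, and 9.08% of the cells could not be assigned to a type. Between 33 and 69 barcodes were shared by any pair of libraries. DOCA-salt mouse 2 stood apart in that 617 of its barcodes (6.42%) formed a cluster of their own with at most 44 barcodes of any other mouse, 29 of them assigned to the CNT and 168 to the PT. Its summed marker score was highest for Schwann cells (1.63, against 0.729 for the PT), but on few UMIs, such as 12 of Cdh19 against 4809 of the PT gene Lrp2 in its 681 barcodes. It is left unnamed here. Where clusters replaced the marker model, it kept the Schwann cell label and entered neither the tubular nor the non-tubular sum. Leaving that cluster out gave log2 changes of 5.43 for Gabrg3, 3.71 for Ctnnd2, 7.36 for Arhgap36, -3.24 for Cntnap5a, 2.57 for Sh3rf3, 3.82 for Tfr2, 1.78 for Creb5 and 2.84 for Pdlim1 in tubular cells, against 5.43, 3.73, 7.35, -3.26, 2.57, 3.81, 1.78 and 2.87 with it. RNA freed from other cells was not subtracted. In summed cells, fewer cells of a state and less RNA per cell cannot be told apart.

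The neuronal sound of several names was not matched by neuronal markers. In summed tubular cells 16 neuron markers added up to between 5.07 and 6.78 CPM in sham mice and between 5.19 and 7.01 CPM in DOCA-salt mice. Th and Slc17a6 were at 0 UMIs in both groups, Dbh had 1 UMI, and Snap25, a synaptic vesicle fusion protein, had 5 sham and 3 DOCA-salt UMIs. In the CNT the same markers summed to between 20.1 and 23.8 CPM in sham and between 13.2 and 18.1 CPM in DOCA-salt mice. Schwann cell markers stood at 3.06 to 3.41 and 3.34 to 3.79 CPM in tubular cells. The 8 genes are therefore called by their symbols and not as neuronal genes. Markers of other cells did move: in tubular cells 6 fibroblast markers summed to between 2.05 and 4.76 CPM in sham and between 17.8 and 29.8 CPM in DOCA-salt mice, and 6 macrophage markers to between 36.9 and 59.5 and between 58.5 and 70.8 CPM, with none of the 12 at 0. Their part in the results was not tested.

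With all tubular cells summed, 7 of the 8 genes were higher and 1, Cntnap5a, was lower in every DOCA-salt mouse than in every sham mouse. All 8 passed an adjusted p under 0.05 in the edgeR quasi-likelihood fit, where 6.57% of 18134 genes passed. They were picked on this contrast, so nothing is read from these counts. The share of all genes without overlap between the groups in tubular cells was not computed.

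Gabrg3 was measured at 0.169, 0.147 and 0.157 CPM in sham mice 1, 2 and 3 and at 6.99, 6.51 and 7.81 CPM in DOCA-salt mice 1, 2 and 3 (32 and 1442 UMIs; log2 change 5.43, SE 0.19). Arhgap36 had 2 UMIs in the tubular cells of the sham mice and 410 in those of the DOCA-salt mice, at 0, 0.0163 and 0.0174 CPM against 2.34, 1.88 and 1.67 CPM, a ratio of 201 with an exact 95% counting interval of 55.3 to 1665. Ctnnd2 stood at 0.629, 0.440 and 0.540 CPM in sham and at 6.89, 9.37 and 5.84 CPM in DOCA-salt mice (log2 change 3.73, SE 0.23). Gabrg3 and Arhgap36 came close to silent in sham tubules. They and Ctnnd2 were low even after treatment when all tubular cells were averaged.

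Sh3rf3 was at 0.423, 0.456 and 0.523 CPM in sham and at 2.94, 2.76 and 2.83 CPM in DOCA-salt mice (log2 change 2.57, SE 0.18). Pdlim1 was at 0.532, 0.407 and 0.488 CPM against 3.36, 4.17 and 3.27 CPM (2.87, SE 0.19). Creb5 was the most abundant of the genes that were higher, at 9.56, 10.6 and 10.3 CPM in sham and at 29.7, 38.6 and 40.0 CPM in DOCA-salt mice (1.78, SE 0.13). In each of these genes every DOCA-salt mouse lay well above every sham mouse.

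Tfr2 was at 0.0847, 0.114 and 0.0871 CPM in sham and at 1.18, 1.47 and 1.51 CPM in DOCA-salt mice (log2 change 3.81, SE 0.26). Cntnap5a was the gene of the opposite sign, at 10.3, 7.69 and 9.02 CPM in sham and at 0.685, 1.11 and 1.13 CPM in DOCA-salt mice (-3.26, SE 0.22).

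**Figure D1:**
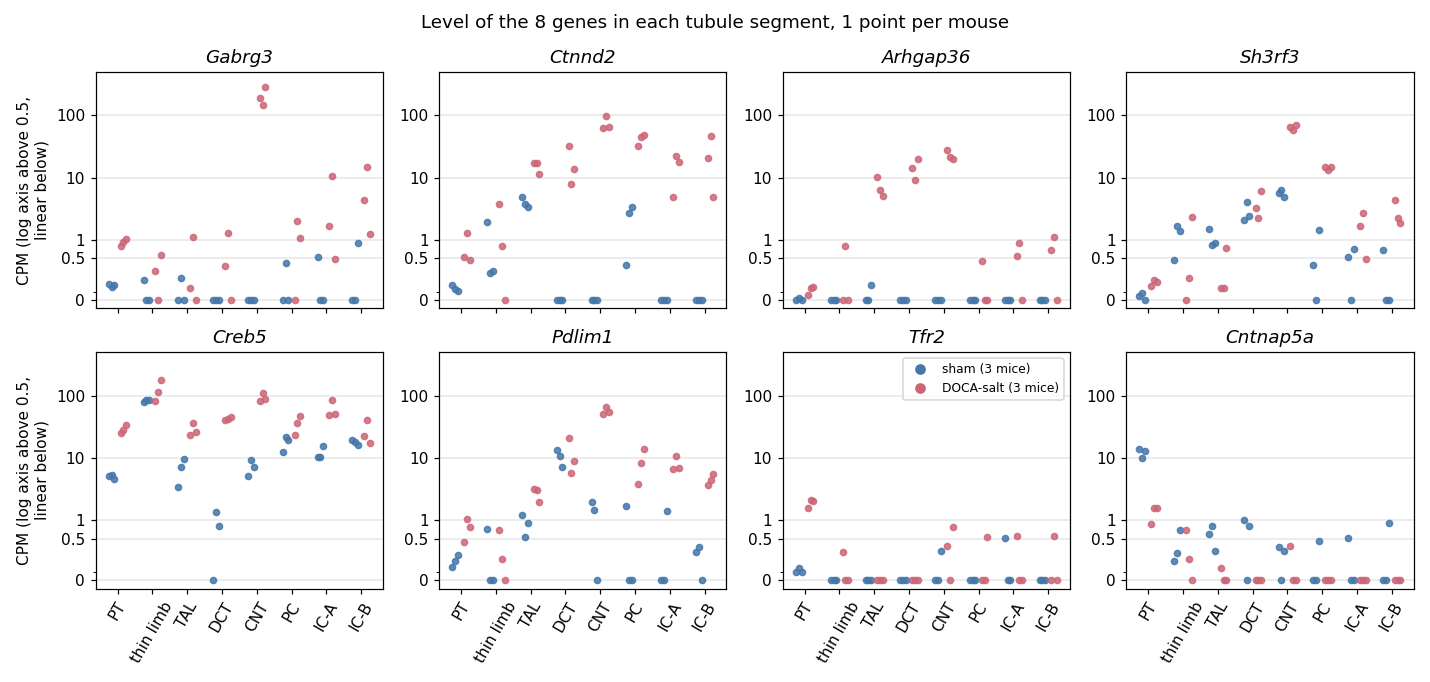
Levels of the 8 genes in 8 tubule segments; each point is 1 mouse (CPM on an axis that is logarithmic above 0.5 and linear below, sham in blue and DOCA-salt in red). Gabrg3, Ctnnd2, Arhgap36, Sh3rf3 and Pdlim1 reached their highest DOCA-salt mean in the CNT, at 209, 75.1, 23.1, 64.4 and 57.4 CPM, while the PT had the highest DOCA-salt mean of Tfr2 and Cntnap5a.

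Divided by segment, 6 of the 8 genes were higher in the connecting tubule of every DOCA-salt mouse than of any sham mouse, and 5 of them had their highest DOCA-salt mean there. The CNT class held 218, 227 and 341 cells of the sham mice and 173, 191 and 166 cells of the DOCA-salt mice, with median depths of 5484 to 13522 UMIs per cell. In the CNT 14.1% of 10859 genes passed the test and 18.8% were higher in every DOCA-salt mouse than in every sham mouse. Gabrg3, Ctnnd2, Arhgap36, Sh3rf3, Creb5 and Pdlim1 were past both marks, which the way they were chosen would favour.

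The receptor subunit Gabrg3 had 0 UMIs in the CNT of all 3 sham mice and stood at 193, 149 and 285 CPM in DOCA-salt mice 1, 2 and 3 (1217 UMIs). With 7410016 UMIs in the sham CNT, a count of 0 allows up to 0.405 CPM, so that Gabrg3 was at least 479-fold higher in the DOCA-salt CNT. The adhesion gene Ctnnd2 had 0 sham UMIs as well and stood at 61.9, 98.9 and 64.4 CPM (487 UMIs, at least 192-fold higher). The protein kinase A inhibitor Arhgap36 had 0 sham UMIs and was at 28.0, 21.7 and 19.6 CPM (149 UMIs, at least 58.7-fold higher). These floors rest on 3 counts over the sham group and cover counting error only.

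Sh3rf3, Creb5 and Pdlim1 were already detected in sham CNT cells. The ubiquitin ligase gene Sh3rf3 was at 5.56, 6.30 and 4.95 CPM and reached 65.2, 57.4 and 70.7 CPM (log2 change 3.45, SE 0.20). Creb5 was at 5.17, 9.21 and 7.07 CPM against 82.1, 113 and 90.4 CPM (3.69, SE 0.23). Pdlim1 was at 1.99, 1.45 and 0 CPM against 51.6, 66.3 and 54.2 CPM (5.60, SE 0.41). Cntnap5a and Tfr2 had at most 2 UMIs per group in the CNT.

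**Figure D2:**
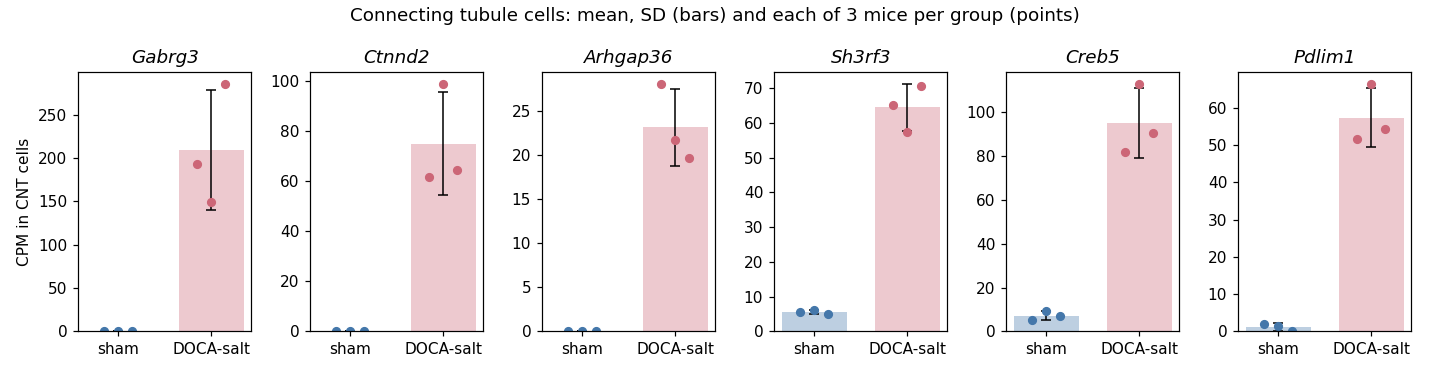
Levels of 6 of the genes in CNT cells; points are the 3 sham and the 3 DOCA-salt mice (CPM, linear axes that differ between genes), bars are group means and whiskers 1 SD. Gabrg3, Ctnnd2 and Arhgap36 lie at 0 in every sham mouse, and the groups of the other genes do not overlap.

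The CNT class was not made of the same cells in both groups. In an unsupervised clustering, 493 of 786 sham CNT cells (62.7%) but 234 of 530 DOCA-salt CNT cells (44.2%) fell in the CNT cluster, and 123 (15.6%) and 159 (30.0%) fell in the DCT cluster. The class markers S100g and Calb1, which buffer calcium, averaged 21469 and 2965 CPM in sham and 14424 and 2872 CPM in DOCA-salt mice. The sodium-calcium exchanger Slc8a1 averaged 7213 and 15017 CPM, the DCT gene Slc12a3 550 and 1206 CPM, and the principal cell water channel Aqp2 1006 and 279 CPM. With the cells of all 3 mice of a group pooled, which gives no spread over mice, the sham and DOCA-salt levels within CNT cells of the CNT cluster were 0 and 291 CPM for Gabrg3, 0 and 105 for Ctnnd2, 0 and 34.0 for Arhgap36, 6.38 and 76.3 for Sh3rf3, 5.47 and 132 for Creb5, and 0 and 73.9 for Pdlim1. Within CNT cells of the DCT cluster the pooled DOCA-salt levels were lower, at 3.90 CPM for Gabrg3, 2.34 for Ctnnd2, 4.68 for Arhgap36, 28.9 for Sh3rf3, 15.6 for Creb5 and 40.6 for Pdlim1. The PC, IC-A and IC-B clusters held 18, 25 and 24 DOCA-salt CNT cells. In these Gabrg3 was at 191, 166 and 250 CPM and Ctnnd2 at 85.1, 182 and 9.54 CPM. The pooled levels thus differed within cells of the same cluster.

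The share of CNT cells in which a transcript was captured differed as well, although a cell without a UMI is not shown to lack the transcript at these levels. After each cell was thinned to 1000 UMIs, the share of DOCA-salt CNT cells with a Gabrg3 UMI was 9.21%, against 0% in sham CNT cells, and without thinning it was 19.0%. Thinning left out 85 sham and 70 DOCA-salt CNT cells of lower depth. In endothelium and macrophages of DOCA-salt mice the thinned Gabrg3 shares were 0.005% and 0.028%. Fibroblasts also held the gene, with thinned shares of 11.1% in sham (33 cells of 2 mice) and 1.41% in DOCA-salt mice. The thinned CNT shares in sham and DOCA-salt mice were 0% and 4.84% for Ctnnd2, 0% and 1.58% for Arhgap36, 0.439% and 6.49% for Sh3rf3, 0.507% and 6.29% for Creb5, and 0.0828% and 4.55% for Pdlim1. At equal depth, more DOCA-salt than sham CNT cells thus held a UMI of each of these genes. In DOCA-salt macrophages and endothelium the thinned shares were 63.3% and 6.14% for Creb5 and 5.18% and 0.0577% for Ctnnd2. Free RNA was not subtracted.

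Gabrg3 UMIs were unevenly spread over the cells. Of the DOCA-salt CNT cells, 44 of mouse 1, 28 of mouse 2 and 28 of mouse 3 held at least 1 Gabrg3 UMI, with a median of 4, 6 and 9 and a maximum of 71, 68 and 64. Most of these cells, 33, 22 and 22, lay in the CNT cluster and 1 per mouse in the DCT cluster. Of the cells without a Gabrg3 UMI, 66, 49 and 42 lay in the CNT cluster and 42, 60 and 54 in the DCT cluster. This division of the CNT cells was added after the values were seen, and with 3 mice no exact test could go below 0.25, so that it is given without a test.

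The Gabrg3-positive CNT cells also held more of several other genes than the Gabrg3-negative CNT cells of the same DOCA-salt mice. Ctnnd2 averaged 201 CPM with and 19.7 CPM without Gabrg3 (mean log2 difference 3.24, SD 0.34, n = 3). Arhgap36 averaged 49.5 and 10.8 CPM (2.38, SD 1.40), Creb5 214 and 42.5 CPM (2.26, SD 0.70) and Pdlim1 102 and 36.6 CPM (1.5, SD 0.81). Sh3rf3 was about as high in both, at 70.7 and 61.3 CPM (0.18, SD 0.25). Of the genes that mark the segment, the calcium channel Trpv5 averaged 397 and 308 CPM, whereas Calb1 averaged 652 and 3884 CPM, S100g 7765 and 17410 CPM and Slc12a3 93.1 and 1717 CPM. The injury genes Lcn2 and Sox9 averaged 178 and 48.7 CPM in the positive and 39.3 and 21.1 CPM in the negative cells. The positive cells were deeper, with median UMIs of 15126.5, 22422.5 and 13401.5 against 12361, 11314 and 2933, and deeper cells are more likely to show a Gabrg3 UMI. The part of depth and that of the different cluster make-up were not tested.

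**Figure D3:**
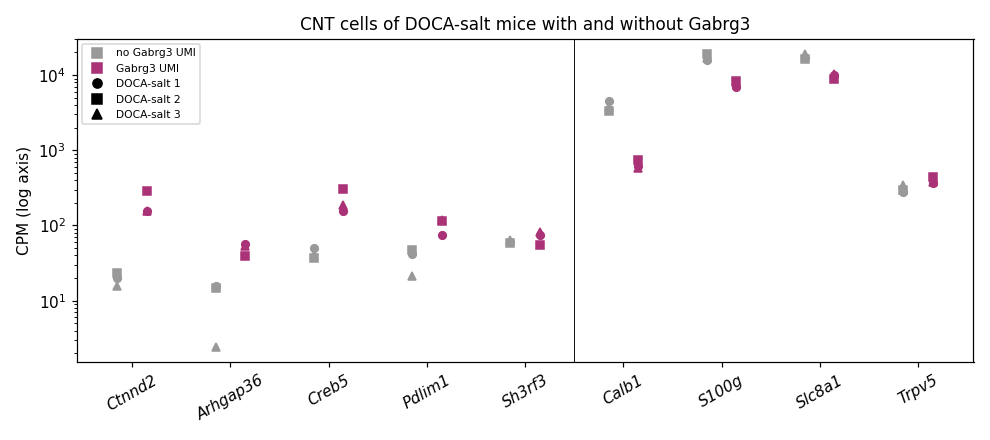
Levels (CPM, log axis) of other genes in CNT cells of the DOCA-salt mice with and without a Gabrg3 UMI; point shapes mark the 3 mice, and segment markers stand to the right of the line. Ctnnd2, Creb5 and Pdlim1 lie higher in the Gabrg3-positive cells, and Calb1 and S100g lower.

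Outside the CNT the levels of the 6 genes differed along the nephron. Gabrg3 was low in the other tubule segments: its DOCA-salt mean was 209 CPM in the CNT and 6.83 CPM in the next segment of its order, the IC-B, where the mice ranged widely at 4.40, 14.9 and 1.22 CPM. The CNT held 68.2% of all Gabrg3 UMIs of the DOCA-salt mice. In the PT it was at 0.788, 0.927 and 1.03 CPM in DOCA-salt mice. The PC (mean 1.01 CPM), the DCT (0.561) and the TAL (0.418) each overlapped that range over mice. At levels so low, free RNA was not separated from expression.

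Ctnnd2 was higher in several distal segments. In PC it was at 0.417, 2.70 and 3.36 CPM in sham and at 32, 45.1 and 47.6 CPM in DOCA-salt mice (log2 change 4.32, SE 0.39). In the TAL it was at 4.81, 3.76 and 3.4 CPM against 17.3, 17.0 and 11.5 CPM (1.88, SE 0.24). In the DCT it went from 0 in all sham mice to 32.1, 7.99 and 13.5 CPM, at least 17.1-fold higher. In both intercalated types it was at 0 in every sham mouse, and the DOCA-salt mice differed widely, at 4.92, 21.8 and 17.7 CPM in IC-A and at 20.7, 47.3 and 4.89 CPM in IC-B. The order of DOCA-salt means was CNT (75.1 CPM), PC (41.6), IC-B (24.3), DCT (17.9), TAL (15.2) and IC-A (14.8), and the CNT lay above the PC in every DOCA-salt mouse, while from the PC on each segment overlapped its neighbour over mice. In sham mice Ctnnd2 was highest in the TAL, at a mean of 3.99 CPM.

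Arhgap36 appeared in 3 adjoining segments. In the DCT it was at 0 in all sham mice and at 14.2, 9.26 and 19.6 CPM in DOCA-salt mice, at least 13.3-fold higher. In the TAL it had 1 UMI in sham mice and 134 in DOCA-salt mice (0, 0 and 0.179 CPM against 10.1, 6.21 and 5.12 CPM), a ratio of 118 with an exact counting interval of 20.9 to 4709. The DOCA-salt means were 23.1 CPM in the CNT, 14.4 CPM in the DCT and 7.15 CPM in the TAL. The lowest CNT mouse (19.65 CPM) and the highest DCT mouse (19.62 CPM) nearly met, so that these neighbours were barely apart, and the DCT overlapped the TAL.

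In DOCA-salt mice the second highest mean of Sh3rf3 was in PC, where it was at 0.417, 0 and 1.44 CPM in sham and at 14.6, 13.1 and 14.8 CPM in DOCA-salt mice (4.48, SE 0.52). It was the only one of the 8 genes with a segment, the TAL, in which every DOCA-salt mouse lay on the other side. There it was at 1.5, 0.807 and 0.895 CPM in sham and at 0.149, 0.138 and 0.732 CPM in DOCA-salt mice (18 and 5 UMIs). The share of all genes so separated in the TAL was not computed, so nothing is read from this separation. Pdlim1 was led in sham mice by the DCT, at 13.2, 10.8 and 7.26 CPM, and overlapped that range in DOCA-salt mice, at 20.7, 5.75 and 8.97 CPM (log2 change 0.05, SE 0.45). In IC-A 2 sham UMIs of Pdlim1 stood against 50 in DOCA-salt mice, a ratio of 17.3 with an exact counting interval of 4.55 to 146.8. The highest segment of Pdlim1 thus was the DCT in sham mice and the CNT in DOCA-salt mice.

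Creb5 was higher along nearly the whole tubule. In the PT it was at 5.21, 5.23 and 4.58 CPM in sham and at 24.9, 27.8 and 33.4 CPM in DOCA-salt mice (log2 change 2.43, SE 0.13). In the DCT 2 sham UMIs (0, 1.35 and 0.806 CPM) stood against 313 in DOCA-salt mice (40.7, 42.5 and 44.8 CPM), a ratio of 62.9 with an exact counting interval of 17.3 to 521. In the TAL it was at 3.46, 7.26 and 9.49 CPM against 23.1, 36.3 and 25.8 CPM (2.07, SE 0.30). The groups did not overlap in IC-A (10.4, 10.2 and 15.5 against 48.6, 85.9 and 50.1 CPM) or PC (12.5, 22.0 and 19.2 against 23.5, 36.8 and 47.1 CPM). They overlapped in IC-B (19.4, 18.3 and 16.0 against 22.7, 41.3 and 17.1 CPM) and in the thin limb, where Creb5 was highest in both groups (78.7, 86.1 and 84.5 against 81.1, 115 and 177 CPM). The thin limb and the CNT did not differ beyond their spread in DOCA-salt mice, at means of 124 and 95.1 CPM.

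The iron sensor Tfr2 and the adhesion gene Cntnap5a had their highest mean in the PT among the tubule segments of DOCA-salt mice. In sham mice this held for Cntnap5a, while Tfr2 was near 0 everywhere and its PT mean (0.117 CPM) overlapped those of the IC-A (0.173 CPM) and the CNT (0.118 CPM). Tfr2 was at 0.0983, 0.151 and 0.102 CPM in sham PT and at 1.59, 2.09 and 2.04 CPM in DOCA-salt PT (log2 change 3.92, SE 0.29). Cntnap5a was at 13.9, 10.1 and 13 CPM in sham PT and at 0.879, 1.58 and 1.56 CPM in DOCA-salt PT (-3.30, SE 0.23). The PT held 98.2% of Cntnap5a UMIs in sham and 94.6% in DOCA-salt mice, and 54.8% and 87.1% of Tfr2 UMIs.

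These PT genes sat in different parts of the PT, whose early (S1), middle (S2) and late (S3) parts were told apart by markers. Cntnap5a was higher in later parts of the PT of sham mice, at means of 0.708 CPM in S1, 6.35 in S2 and 31.6 in S3. In S3 it was at 31.7, 28.6 and 34.7 CPM in sham and at 2.53, 6.14 and 4.73 CPM in DOCA-salt mice, so that the difference held within S3 cells as well as in the whole PT. The S3 class itself was smaller after treatment, with 3657 sham and 2086 DOCA-salt cells. Tfr2 leaned the other way: its DOCA-salt mean was 2.67 CPM in S1, 1.34 in S2 and 0.955 in S3. In S1 Tfr2 was at 0.141, 0.153 and 0.128 CPM in sham and at 2.38, 2.94 and 2.70 CPM in DOCA-salt mice, on 8 and 172 UMIs. After thinning, 0.0256% of sham and 0.247% of DOCA-salt S1 cells held a Tfr2 UMI, and without thinning 0.155% and 2.92% did. Even in DOCA-salt mice few cells thus showed the transcript. Creb5 was higher in all parts of the PT, from means of 9.09, 1.92 and 2.23 CPM in S1, S2 and S3 of sham mice to 34.7, 16.2 and 32.7 CPM in DOCA-salt mice.

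**Figure D4:**
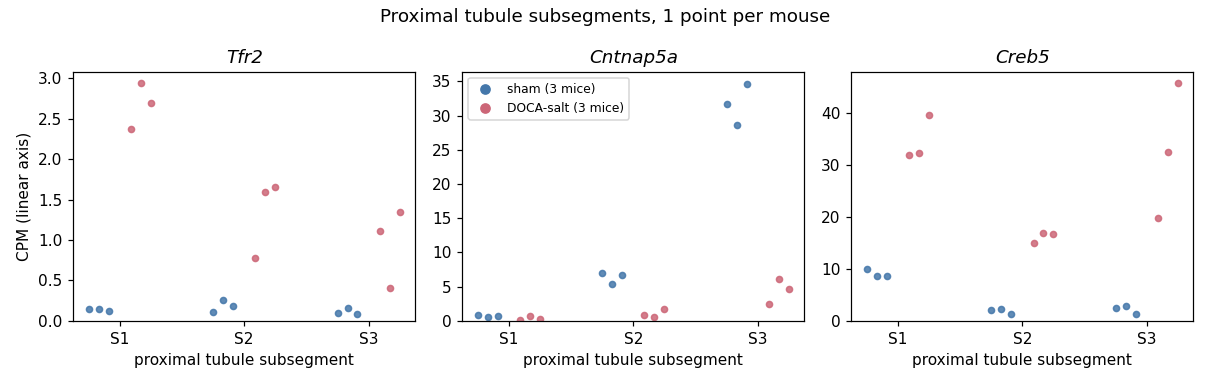
Levels (CPM, linear axes that differ between genes) of Tfr2, Cntnap5a and Creb5 in the S1, S2 and S3 parts of the proximal tubule; each point is 1 mouse. Cntnap5a is lower in S2 and S3 of DOCA-salt mice, Tfr2 is highest in S1 of DOCA-salt mice, and Creb5 is higher in all 3 parts.

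Set against all other tubular cells of the same mouse, the segment with the highest mean over the 6 mice was higher by 2.19 on the log2(CPM + 1) scale for Cntnap5a in PT, by 3.72 for Sh3rf3 in CNT, by 0.75 for Tfr2 in PT and by 2.68 for Creb5 in the thin limb, in 6 of 6 mice for each. The segment had been picked in these same mice, so no p-value is given. Pdlim1 was higher in the CNT in 5 of 6 mice, in 4 of 6 with at most 20% mitochondrial UMIs per cell and in 3 of 6 with cell types from clustering. Gabrg3, Ctnnd2 and Arhgap36 were higher in the CNT in the 3 DOCA-salt mice and in no sham mouse. With the 20% limit, Tfr2 was higher in the PT in 5 of 6 mice and the highest mean of Arhgap36 was in the TAL.

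Non-tubular cells of the same kidneys had no part in the choice of the genes and were tested. In the endothelial, stromal and immune cells summed, without the podocytes, the urothelium and an epithelium marked by Wt1 and Ncam1, 18.5% of 15302 genes passed an adjusted p under 0.05 in edgeR, and of the 8 genes 5 had enough UMIs to be tested and 3 passed. Sh3rf3 was at 1.09, 0.218 and 0.821 CPM in sham and at 3.66, 4.32 and 5.33 CPM in DOCA-salt mice (log2 change 2.59, SE 0.41, adjusted p = 0.0027). With 11 sham UMIs, Sh3rf3 met the low-count filter only through the DOCA-salt mice. Its p-value, here and in the alternatives with that filter, is favoured by this and is no independent support. Ctnnd2 was at 9.78, 6.33 and 5.54 CPM against 11.9, 18.6 and 15.5 CPM (1.08, SE 0.25, adjusted p = 0.0154). Pdlim1 was at 19.0, 25.1 and 29.6 CPM against 43.0, 45.0 and 54.3 CPM (0.95, SE 0.18, adjusted p = 0.00659). All 3 genes were thus higher in each DOCA-salt mouse of this sum than in any sham mouse. The share of all genes so separated in this sum was not computed, so nothing is read from that count. When podocytes and urothelium were added to the sum, 1 of the 8 genes passed: Sh3rf3 had a log2 change of 2.33 (adjusted p = 0.00361), while Ctnnd2 was at 0.92 (adjusted p = 0.0623) and Pdlim1 at 0.34 (adjusted p = 0.0845). Podocytes alone held Pdlim1 at 414, 333 and 216 CPM in sham and at 249.4, 186 and 678 CPM in DOCA-salt mice, from 4 to 39 cells a mouse. Sh3rf3 passed in all 17 fits, the reported one and its alternatives, whereas Ctnnd2 reached adjusted p = 0.0607 without sham mouse 3 and 0.053 without DOCA-salt mouse 3, and Pdlim1 had a log2 change of 0.31 (adjusted p = 0.166) with cell types from clustering.

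Creb5 and Gabrg3 did not pass in the endothelial, stromal and immune cells, with log2 changes of 0.29 (SE 0.15, adjusted p = 0.226) and 0.14 (SE 0.70, adjusted p = 0.918). For Creb5 the adjusted p was 0.0477 without sham mouse 2. Gabrg3 was at 8.88, 0.655 and 1.44 CPM in sham and at 2.09, 3.92 and 6.43 CPM in DOCA-salt mice, so that sham mouse 1 decided the estimate: without it the log2 change was 1.97 (SE 0.66, adjusted p = 0.0975), and over all 17 fits it ran from -0.30 to 1.97. Arhgap36, Cntnap5a and Tfr2 had too few UMIs to be tested. The make-up of the summed cells differed between groups, with 23, 4 and 10 fibroblasts in sham and 215, 303 and 325 in DOCA-salt mice. Fibroblasts averaged 76.6 CPM of Pdlim1 in sham and 139 CPM in DOCA-salt mice, and 21.4 and 17.9 CPM of Sh3rf3. In both genes the groups overlapped within fibroblasts. Of the 194 Sh3rf3 UMIs of this sum in DOCA-salt mice, 183 were in fibroblasts. Macrophages, which held 86 sham and 519 DOCA-salt UMIs of Ctnnd2, numbered 151, 133 and 133 in sham and 438, 612 and 670 in DOCA-salt mice, and within them the log2 change of Ctnnd2 was 0.05. The part of these shifts was not tested.

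Within the endothelium and the macrophages none of the tested genes passed. In endothelium, where 10.1% of 12524 genes passed, 0 of 2 tested genes did in edgeR or in DESeq2, and 1 had an unadjusted p under 0.05: Creb5 changed by 0.46 on the log2 scale (SE 0.19, adjusted p = 0.158) and Pdlim1 by -0.37 (SE 0.30, adjusted p = 0.505). In macrophages, where 5.63% of 9275 genes passed, 0 of 2 did in edgeR or in DESeq2, again with 1 at an unadjusted p under 0.05: Creb5 changed by -0.49 (SE 0.17, adjusted p = 0.117) and Ctnnd2 by 0.05 (SE 0.24, adjusted p = 0.952). With 3 mice per group, these values do not show that the levels were equal.

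Outside the tubule, Creb5, Ctnnd2 and Pdlim1 reached mean levels above those of any tubule segment in at least 1 cell type. Creb5 was at 1714, 2096 and 1378 CPM in sham macrophages and at 1245, 1277 and 1456 CPM in DOCA-salt macrophages, which held 40.4% and 47.3% of all Creb5 UMIs. Ctnnd2 was at 66.6, 37.2 and 36.0 CPM in sham and 41.5, 64.2 and 51.6 CPM in DOCA-salt macrophages. In dendritic cells it was at 15.6, 22.3 and 29.8 CPM in sham and at 89.4, 105 and 79.5 CPM in DOCA-salt mice, from 12 to 47 cells a mouse. In the urothelium it was at 229, 191 and 64.4 CPM in sham and at 287, 87.4 and 310 CPM in DOCA-salt mice, from 1 to 14 cells a mouse. Of the 97 Gabrg3 UMIs in sham kidneys 55.7% were in fibroblasts and 33.0% in tubular cells, but the fibroblast share came mainly from sham mouse 1, with 48 UMIs in 23 fibroblasts against 0 in sham mouse 2 and 6 in sham mouse 3. Sham mice 2 and 3 each had 9 tubular Gabrg3 UMIs. Sham fibroblasts averaged 137.5 CPM of Gabrg3 (SD 164.8) from 4 to 23 cells a mouse, and DOCA-salt fibroblasts 16.6 CPM (SD 7.88).

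The epithelium marked by Wt1 and Ncam1, counted neither as a tubule segment nor in the sums above, held 71, 95 and 92 cells in sham and 116, 239 and 137 cells in DOCA-salt mice. Of these cells 132 lay in the unnamed cluster formed mainly by DOCA-salt mouse 2, and levels without them were not computed. Gabrg3 was at 2.29, 0.867 and 2.77 CPM there in sham and at 9.01, 14.7 and 13.6 CPM in DOCA-salt mice, which gave 7.46% of the Gabrg3 UMIs of DOCA-salt kidneys. Ctnnd2 was at 9.16, 11.3 and 6.46 CPM against 35.3, 23.6 and 39.2 CPM. Pdlim1 was at 0, 2.60 and 1.85 CPM against 10.1, 13.2 and 12.8 CPM, and Arhgap36 at 0 in all sham mice against 5.41, 2.69 and 2.20 CPM. In these 4 genes the groups did not overlap. The share of all genes without overlap in this class was not computed, so nothing is read from that count. Creb5 overlapped, at 245, 336 and 363 CPM against 327, 270.1 and 478 CPM, and so did Sh3rf3, at 8.01, 1.73 and 4.61 CPM against 5.77, 5.99 and 2.56 CPM. No fit was made for this class.

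The injury marker Havcr1 (KIM-1), a receptor that injured PT cells put on their surface, divided the PT cells within each mouse. Havcr1 itself was higher in tubular cells of DOCA-salt mice. PT cells with a Havcr1 UMI numbered 15, 10 and 10 in sham and 120, 118 and 149 in DOCA-salt mice. Set against the other PT cells of the same mice, with mouse as a covariate, 14.5% of 13987 genes passed an adjusted p under 0.05, and 1 of the 4 genes tested did. Creb5 was at 52.1, 113 and 62.9 CPM in Havcr1-positive and at 23.7, 23.3 and 31.6 CPM in Havcr1-negative cells of the DOCA-salt mice. In sham mice, where the positive cells gave 7 Creb5 UMIs in all, it was at 8.33, 27.1 and 0 CPM against 5.20, 5.14 and 4.59 CPM. The fit gave a log2 difference of 1.45 (SE 0.14, edgeR adjusted p = 4.63e-10), and the adjusted p ran from 1.4e-22 to 0.00299 over 14 fits, the reported one included. Creb5 was higher in the positive cells of 5 of 6 mice. The positive cells of the DOCA-salt mice gave 566 Creb5 UMIs, so the fit rests mainly on these mice. Their PT cells were among those summed when Creb5 was chosen, which may favour this contrast.

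Cntnap5a was lower in Havcr1-positive cells by -1.38 on the log2 scale without passing (edgeR adjusted p = 0.0605), on 7 UMIs in positive cells. It passed with at most 20% mitochondrial UMIs (adjusted p = 0.0445) and without the cluster of DOCA-salt mouse 2 (adjusted p = 0.0346). Ctnnd2, too sparse for this test otherwise, passed where doublets were kept. Gabrg3 differed by 0.91 (edgeR adjusted p = 0.169) and Tfr2 by -0.09 (edgeR adjusted p = 0.937). The positive cells were deeper, with a median UMI count 1.39 to 2.29 times that of the negative cells. Its part was not tested.

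**Figure D5:**
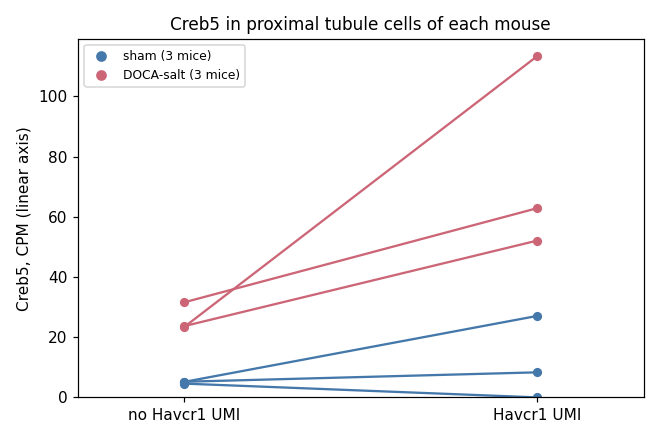
Creb5 level (CPM) in PT cells with and without a Havcr1 UMI; each line joins the values of 1 mouse, sham and DOCA-salt shown apart. In all 3 DOCA-salt mice and in 2 of the 3 sham mice the positive cells lie higher.

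Other genes of the pathways of the 8 were read from 11 lists holding 175 genes, none of them one of the 8. The lists were chosen with earlier results of these data known, so their p-values do not test lists fixed beforehand. In tubular cells 17 list genes passed an adjusted p under 0.05 in edgeR, where 6.57% of all genes tested did. Of 6 tested GABA-A receptor subunits, 1 was lower and 0 higher (median log2 change -0.15, against -0.02 over all genes): Gabrg1 fell from 0.399, 0.440 and 0.436 CPM to 0.171, 0.0776 and 0.211 CPM (-1.54, adjusted p = 0.0415). Of 6 tested genes for GABA synthesis, breakdown and transport 0 passed in edgeR, DESeq2 or at an unadjusted p under 0.05 (median -0.10), and the adaptors Gabarap (-0.12, adjusted p = 0.56) and Gphn (0.10, adjusted p = 0.638) were the most abundant. None of the other tested GABA-A receptor subunits thus passed as higher beside Gabrg3.

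In the adhesion lists, 1 of 12 delta-catenin and cadherin genes was higher (median 0.05): the cadherin Cdh6 rose from 19.0, 19.4 and 18.8 CPM to 27.7, 38.1 and 31.8 CPM (0.73, adjusted p = 0.0108). Of 12 contactin-associated proteins, neurexins and neuroligins, 2 were higher and 1 lower (median 0.25). The synaptic adhesion gene Nlgn1 rose from 0.629, 0.652 and 0.348 CPM to 6.40, 7.72 and 3.58 CPM (3.39, adjusted p = 0.00178), its partner Nrxn3 rose by 1.11 (adjusted p = 0.0329), and Cntn5 fell by 0.85 on the log2 scale (adjusted p = 0.0389). Of the signalling lists, 0 of 14 hedgehog and protein kinase A genes and 0 of 12 POSH and JNK genes passed in edgeR or DESeq2, with 1 each at an unadjusted p under 0.05 (medians 0.06 and -0.06). Their leading genes were Sufu (0.27, adjusted p = 0.172), Prkar1a (-0.16, adjusted p = 0.292), Sh3rf1 (0.22, adjusted p = 0.384) and Jun (-0.29, adjusted p = 0.289).

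Of 21 CREB and ATF family genes, 0 passed in edgeR or DESeq2 and 2 had an unadjusted p under 0.05 (median -0.05), with Fos at -0.02 (adjusted p = 0.96) and Jund at -0.45 (adjusted p = 0.282). Of 12 PDZ-LIM and alpha-actinin genes 1 was higher (median 0.17), the alpha-actinin Actn1 (0.65, adjusted p = 0.0229). Of 22 iron genes 1 was higher (median 0.09), the hepcidin-inducing ligand Bmp6 (0.68, adjusted p = 0.0187; means 95.7 and 157 CPM).

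Of 11 injury genes 7 were higher and 0 lower (median 1.75), led by Havcr1 (4.31, adjusted p = 0.00048), the adhesion receptor Vcam1 (3.71, adjusted p = 0.00048), the transcription factor Sox9 (2.88, adjusted p = 0.00048) and the iron-binding lipocalin Lcn2 (2.32, adjusted p = 0.00268). Of 15 mineralocorticoid and sodium genes 0 were higher and 3 lower (median -0.02): the sodium channel subunits Scnn1g (-1.03, adjusted p = 0.00408) and Scnn1b (-0.93, adjusted p = 0.0429) and the clock gene Per1 (-0.63, adjusted p = 0.0166). Havcr1, Vcam1, Sox9, Lcn2, Nlgn1 and Scnn1g passed in all 16 fits. Gabrg1, Cdh6, Cntn5, Nrxn3, Bmp6, Actn1, Scnn1b and Per1 each lost the call under at least 1 alternative, with adjusted p up to 0.128, 0.0592, 0.13, 0.122, 0.0809, 0.101, 0.158 and 0.0845.

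In the CNT 14.1% of all genes passed in edgeR. No list gene was called among 1 GABA-A subunit, 4 genes of GABA synthesis, breakdown and transport and 11 cadherin and catenin genes tested, of which 0, 0 and 2 had an unadjusted p under 0.05. Of 9 hedgehog and protein kinase A genes 1 was higher, of 11 POSH and JNK genes 1 was lower (Jun), of 17 iron genes 2 were lower (Hfe and Bmpr1a, named after their values were seen) and of 18 CREB and ATF genes 1 was lower (Fos). Of 7 PDZ-LIM and alpha-actinin genes 3 were higher and 1 lower (Pdlim5, named after its values were seen), and both tested genes of the contactin, neurexin and neuroligin list, Nlgn1 and Nrxn3, were higher. Jun, Hfe, Bmpr1a, Fos, Nrxn3 and Pdlim5 lost the call under at least 1 alternative, with adjusted p up to 0.169, 0.084, 0.143, 0.0519, 0.22 and 0.547, as did the injury gene Clu and the transporters Slc12a3 and Slc26a4 of the lists below, with adjusted p up to 0.0832, 0.0831 and 0.0877. Of 8 tested injury genes 6 were higher and 0 lower (median 1.92, against 0.00 over all genes), with Lcn2 from a mean of 2.27 to 81.3 CPM (5.05, adjusted p = 2e-06) and Sox9 from 0.604 to 29.9 CPM (5.30, adjusted p = 1e-05). Of 15 mineralocorticoid and sodium genes 1 was higher and 8 were lower (median -0.72), among them Nr3c2, the mineralocorticoid receptor itself, from 943 to 476 CPM (-1.05, adjusted p = 0.0057), and Scnn1b from 405 to 204 CPM (-1.06, adjusted p = 0.00118). Hsd11b2, Scnn1g, Slc12a3 and Slc26a4 of that list also served to assign the cells. Nlgn1 rose from 1.19, 0.969 and 2.83 CPM to 113, 143 and 62.9 CPM (5.85, adjusted p = 5e-06), and Actn1 rose from a mean of 43.0 to 138.2 CPM (1.62, adjusted p = 0.000128). The hedgehog effector Gli3, named after its values were seen, was at 0 in sham and at a mean of 9.25 CPM in DOCA-salt CNT (adjusted p = 0.000328). Gli3, Nlgn1, Sox9 and Lcn2 met the low-count filter in the CNT only through the DOCA-salt mice, so their p-values are favoured by it. Lcn2, Sox9, Nr3c2, Scnn1b, Nlgn1, Actn1 and Gli3 passed under all 11 alternatives with a fit.

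The genes whose pattern over 48 sums (8 segments of 6 mice) was most like each of the 8 were found by Pearson's r of log2(CPM + 1) among 10799 genes, as a description, since the sums of a mouse share a library and the treatment moves many genes at once. For Gabrg3 they were Tgfb2 (r = 0.794), Gm33051 (0.763) and Nlgn1 (0.719). For Ctnnd2 they were Krt19 (0.778), Samd5 (0.766) and Basp1 (0.761), and for Arhgap36 Xkr4 (0.779), Nrep (0.753) and Nuak1 (0.735). Sh3rf3 and Pdlim1 had the leukotriene C4 synthase gene Ltc4s in common (0.786 and 0.792), and Sh3rf3 itself was second for Pdlim1 (0.769). Creb5 was nearest to Jazf1 (0.875), Myof (0.848) and Tagln2 (0.827). Cntnap5a was followed by Amacr (0.863), Ass1 (0.861) and Pecr (0.853), and Tfr2 was followed by Tfpi2 (0.668), Ankib1 (0.664) and Ehhadh (0.660). In the Gabrg3-positive CNT cells, Tgfb2 averaged 639 CPM against 67.8 CPM in the negative ones, Nlgn1 220 against 55.8 CPM and Xkr4 97.8 against 15.9 CPM. These genes were picked for likeness over sums that include the same cells, so these values are no separate support. The positive cells were also deeper and differed in cluster make-up, and the part of either was not tested.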

How the data were processed

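RNA of dissociated kidney cells was measured in 3 sham and 3 DOCA-salt mice by droplet 3′ tag sequencing. The deposited matrices hold raw UMI counts per gene and barcode, made by the authors with Cell Ranger on GRCm39, and nothing else was used. The submitters' processing notes name Cell Ranger 9.0.0, Seurat 4.0.0 and R 4.0.3, while the matrix headers name Cell Ranger 8.0.1. The annotation release and the counting of introns are not given in the sources used here.

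A barcode was kept from 170 genes and 500 UMIs upward if mitochondrial transcripts made up no more than 50% and haemoglobin transcripts no more than 5% of its UMIs, which left 8245 to 10880 per mouse. Doublets were removed with Scrublet in scanpy 1.11.5 (Python 3.11.15) at 0.8% per 1000 cells, because its automatic threshold marked 0 cells in DOCA-salt mouse 2. Cells were assigned by a multinomial model of 116 marker genes that stood for 22 classes. None was assigned to the Schwann cell class, and 9.08% of the cells were left unassigned. The cells of each class or segment were summed per mouse. The sum called non-tubular held endothelial, fibroblast, smooth muscle and immune cells and left out podocytes, urothelium and the Wt1/Ncam1 epithelium. CPM were computed from these sums. Groups were compared with edgeR 4.0.16 (R 4.3.3; filterByExpr, TMM, quasi-likelihood F test, Benjamini-Hochberg adjustment over all genes tested), with n = 3 mice per group, and DESeq2 1.42.0 was an alternative. A sign-flip test of segment preference was run but its p is not given, since the segment was picked in the same mice. The scripts were tested on simulated counts.

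The 8 genes and all lists were chosen with earlier results of these data known. The named genes are the 8, up to 4 genes per list with the largest change past the threshold in tubular cells (or the 2 most abundant where none passed), the genes most alike in pattern, and a few named after their values were seen and marked so. Replicate numbers were not taken as pairs: same-numbered sham and DOCA-salt mice deviated with r of -0.149, -0.443 and -0.0743. With 3 mice per group these values cannot exclude that same-numbered mice shared a preparation. Alternatives were other size factors, DESeq2, omission of each mouse in turn, no filter on low counts, a replicate block, a 20% mitochondrial limit, no doublet removal, clusters in place of the marker model, a wider class margin and, added after the data were seen, leaving out the cluster of DOCA-salt mouse 2 and adding podocytes and urothelium to the non-tubular sum. Intervals and floors (3 counts) cover counting error only.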

Additional observations from a re-analysis of the deposited data

Results flagged for a closer look

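In 3 cases a gene went the opposite way in another cell class, with every sham mouse on 1 side of every DOCA-salt mouse. The difference between the classes was not tested. These cases were picked after a search over the genes and the cell classes. The share of all genes so separated in these classes was not computed, so nothing is read from the count of cases. Sh3rf3, higher in summed tubular cells, was lower in the TAL of DOCA-salt mice, at means of 1.07 CPM in sham and 0.340 CPM in DOCA-salt mice (18 and 5 UMIs), a log2 ratio of -0.63 after adding 1 to each mean. Tfr2, higher in the PT, was lower in endothelium, at means of 1.01 and 0.166 CPM (9 and 3 UMIs; log2 ratio -0.79 on the same scale). Creb5, higher along the tubule, was lower in smooth muscle cells and pericytes, at 324 to 367 CPM in sham and 144 to 207 CPM in DOCA-salt mice (means 350 and 184 CPM, 550 and 361 UMIs; log2 ratio -0.93 on the same scale).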

How the results depend on the processing

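The direction of all 8 genes in tubular cells held in each of 16 fits, with log2 changes of 5.22 to 5.58 for Gabrg3, 3.22 to 4.03 for Ctnnd2, -3.37 to -3.05 for Cntnap5a, 2.48 to 2.76 for Sh3rf3, 2.98 to 3.94 for Tfr2, 1.65 to 1.90 for Creb5 and 2.69 to 3.65 for Pdlim1. Arhgap36 had the widest range of the 8, from 6.67 without sham mouse 1 to 7.92 with the 20% mitochondrial limit, and with 2 sham UMIs its fitted change depends on the prior count. In the CNT Pdlim1 ranged from 4.93 to 9.84 over 12 fits, Sh3rf3 from 3.03 to 3.51 and Creb5 from 3.5 to 4.76. The number of genes called in tubular cells was 1191 and moved more: 2008 with DESeq2, 325 with the replicate number as a block (a pairing the check did not bear out), and 383 to 2248 when each mouse was left out, the lowest without DOCA-salt mouse 3 and the highest without sham mouse 2. List genes called in tubular cells numbered 17, 9 with the block and 8 to 23 when each mouse was left out, again the lowest without DOCA-salt mouse 3 and the highest without sham mouse 2. In the CNT 1530 genes were called, and 2373 with clusters in place of the marker model. In endothelium 0 of the 8 genes were called, 1 with clusters (Pdlim1, log2 change -1.07, adjusted p = 0.00729) and 1 without the filter on low counts (Creb5, 0.51, adjusted p = 0.00964). In Havcr1-positive against Havcr1-negative PT cells 1 gene was called, and 2 with the 20% mitochondrial limit, with doublets kept or without the cluster of DOCA-salt mouse 2. In the endothelial, stromal and immune cells 3 of the 8 were called, and 1 with podocytes and urothelium added. With the replicate block Ctnnd2 in these cells had an adjusted p of 0.0635. The share of DOCA-salt CNT cells with a Gabrg3 UMI was 9.21% thinned and 19.0% unthinned. The causes were not tested. Genes of a few UMIs per mouse, such as Tfr2 outside the PT, were limited by depth, and free RNA was not subtracted.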
